A study of Mus musculus with 8 samples.

Results

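The genes described here encode enzymes and a helper protein that turn arachidonic acid into leukotrienes and prostaglandins. There are 7 of them, namely Pla2g4a, Alox5, Alox5ap, Lta4h, Ltc4s, Ptgs1 and Ptgs2. They were selected by name as a pathway, together with whether their probes stood above background and how they differed with the transfected microRNA in each replicate, so those values are given as a description with no test. All 7 were on the array, and 4 were bright enough to enter the test across 18792 genes.

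Phospholipase A2 frees arachidonic acid from membrane lipids. Arachidonate 5-lipoxygenase, encoded by Alox5, works with its activating protein, encoded by Alox5ap, to make the unstable leukotriene A4, which Lta4h hydrolyses to leukotriene B4 and Ltc4s joins to glutathione as leukotriene C4. The cyclooxygenases encoded by Ptgs1 and Ptgs2 start the branch to prostaglandins and thromboxane, and the leukotriene branch is best known from mast cells, eosinophils, neutrophils and macrophages.

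RNA came from cultures of 2 mouse pre-B leukaemia lines, each a single established line. The 70Z/3 line consists of pre-B lymphoblasts, and 18-81 is a pre-B line that Abelson murine leukaemia virus had transformed. Both were transfected by lipid with a synthetic duplex at 10 nM, either pre-miR-125b, which supplies the microRNA miR-125b, or miR-Neg, a control duplex. The medium was changed at 8 h and RNA was taken at 48 h. There were 2 arrays for each of the 4 groups, from 2 independent experiments, and all 8 cultures therefore carried a transfected duplex, with no untransfected culture among them.

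The mature microRNA is shown because it is the agent that separates the groups, and probe stretches are shown for the 4 genes with measurable signal because each gene's result rests on that probe alone. In the microRNA, from RefSeq on GRCm38.p6, capitals mark the seed, bases 2 to 8. In each probe, as deposited, the first 30 of 60 bases are given and capitals mark the longest run of G and C within them.
miR-125b-5p: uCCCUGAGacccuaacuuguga
Pla2g4a probe: CCCattgtgtgtgaatgttattctgaacta
Alox5ap probe: agagacgcatcataacgcaatGCCGCGaag
Lta4h probe: GGagagatctgaaagtggattaaggaactg
Ltc4s probe: caaaacgctggggtGCCCGCCCCCGaatcc

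The Ltc4s probe lies at chr11:50049974-50050031 of the mouse build mm9, as the array design gives it. The Alox5ap probe lies at chr5:150099347-150099406, the Lta4h probe at chr10:92947503-92947562 and the Pla2g4a probe at chr1:151676814-151676873. The GC content of the Ltc4s probe was 53.3%, against 51.7% for Alox5ap and 35.0% for both Lta4h and Pla2g4a, and the median over all probes was 43.3%. The longest exact run that the Ltc4s probe shared with any other probe on the array, on either strand, was 13 bases. The letters CUCAGGG, which pair with the seed, were absent from all 7 members' probes when searched as DNA on the printed strand, and were found in 0.44% of all 55681 probes. Each probe samples only a short stretch of its transcript, so this says nothing about the rest of the messages.

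Signal was measured as intensity and is given below either as such or as log2 relative to the array's own 75th percentile. That percentile ranged from 335 to 713, and 38.0% to 45.1% of probes were well above background, the scanner software's detection call. The dimmest array was 70Z/3 with miR-Neg, replicate 2. Of 12 genes that mark B-cell precursors, 10 were well above background on every array, with Vpreb1 at a mean of 8.94 and Vpreb3 at 8.70 (log2) in 70Z/3, while Rag1 and Rag2, which cut the immunoglobulin loci, were below background on all arrays.

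The first question was which steps of the pathway had measurable message. Detection entered the choice of members, so the answer is a description. Of all 55681 probes, 19169 were well above background on all 8 arrays. Pla2g4a, Alox5ap, Lta4h and Ltc4s were well above background on all 8 arrays. Alox5, Ptgs1 and Ptgs2 were not well above background on any.

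Alox5 intensity lay between 5.87 and 6.75 on the 8 arrays, and the lowest probe called well above background on any array was at 26.7. The lipoxygenase therefore gave no measurable signal in either line or under either duplex, while its activating protein was measurable on every array. Ptgs1, the cyclooxygenase that most tissues make constantly, lay between 7.01 and 7.90 in 70Z/3 and between 11.8 and 29.0 in 18-81. The lines did not overlap, but none of these values was called above background, so no fold is given. Ptgs2, the inducible cyclooxygenase, was printed 10 times on each array, and 0 of its 80 spots were well above background. Their intensities ranged from 5.90 to 29.3, the highest at a spot flagged as an outlier.

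**Figure D1:**
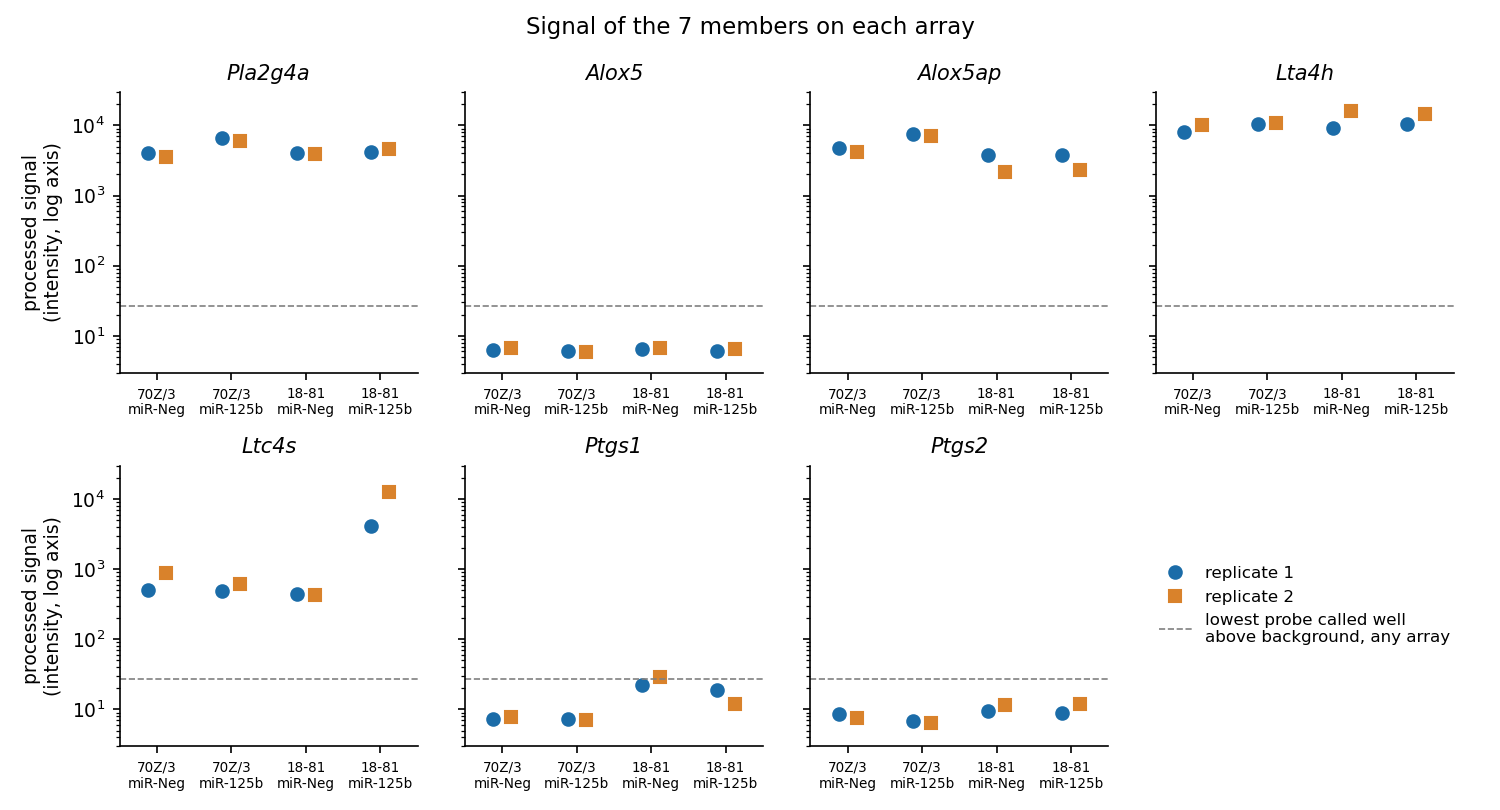
Processed signal of the 7 members (y axis, intensity on a log scale) in the 4 groups (x axis), 1 point per array, with circles for replicate 1 and squares for replicate 2. Pla2g4a, Alox5ap, Lta4h and Ltc4s lie far above the dashed line at 26.7, the lowest probe called well above background on any array, and Ltc4s is highest in both 18-81 arrays with miR-125b.

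Among the members, Ltc4s had the widest range. This gene encodes leukotriene C4 synthase, which commits leukotriene A4 to the cysteinyl leukotrienes. In 18-81 its intensity was 442 and 431 with miR-Neg, and 4163 and 12732 with miR-125b, replicates 1 and 2. The signal with miR-125b was thus above that with miR-Neg in both experiments, and the arrays with miR-125b differed from each other by more than those with miR-Neg did. In 70Z/3 it was 503 and 889 with miR-Neg, and 481 and 622 with miR-125b. There the order ran the other way in both replicates, by a smaller amount.

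After scaling, the levels in 18-81 were -0.66 and -0.41 with miR-Neg and 2.55 and 4.50 with miR-125b (log2 relative to the 75th percentile). The difference within replicate 1 was 3.21, a 9.25-fold higher signal, and within replicate 2 it was 4.91, or 30.1-fold. The fitted mean difference was 4.06 ± 0.70 (SE of the fit, 2 arrays a group). In 70Z/3 the differences were -0.52 and -1.09, with a fitted mean of -0.80 ± 0.70. RNA from a whole culture does not separate more message in each cell from more cells that carry it.

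Taking the 4 groups by their mean Ltc4s level, 18-81 with miR-125b stood at 3.52, followed by 70Z/3 with miR-Neg at 0.69, 70Z/3 with miR-125b at -0.11 and 18-81 with miR-Neg at -0.54. Only the top group lay outside the range of its neighbour in that order. Each of the other neighbouring groups overlapped.

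The limma fit across all genes, which took the arrays of a group as unpaired, put the size of these movements in context. After Benjamini-Hochberg adjustment it called 0 of 18792 genes, 0%, for miR-125b against miR-Neg in 18-81, with 235 at an unadjusted p under 0.05. It likewise called 0% in 70Z/3, with 1110 at that unadjusted level, and 0% for the difference between the lines in the effect of miR-125b, with 617. With the replicate number as a block, 2 genes were called in 18-81.

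The spot itself carried no quality flag on any array. Ltc4s has 1 probe printed once per array, and the spread of its pixels was between 9.48% and 18.0% of their mean. On the bright 18-81 arrays with miR-125b the software's own error was 416 on 4163 and 1273 on 12732. Around that spot lay 14 others, of which 6 were well above background on all 18-81 arrays, and their replicate differences in 18-81 ranged from -1.485 to 0.575.

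Genes beside Ltc4s on the chromosome did not share its pattern. Mgat4b, a glycosyltransferase gene whose probe lies 2.8 kb away toward lower coordinates, differed by -0.05 and 0.43 in 18-81. Maml1, a Notch coactivator gene 19.2 kb away on the other side, differed by 0.01 and -0.17. Within 65 kb, Tbc1d9b, Mrnip, Sqstm1 and Canx were also above background on all arrays, and their differences in 18-81 lay between -0.23 and 0.26.

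**Figure D2:**
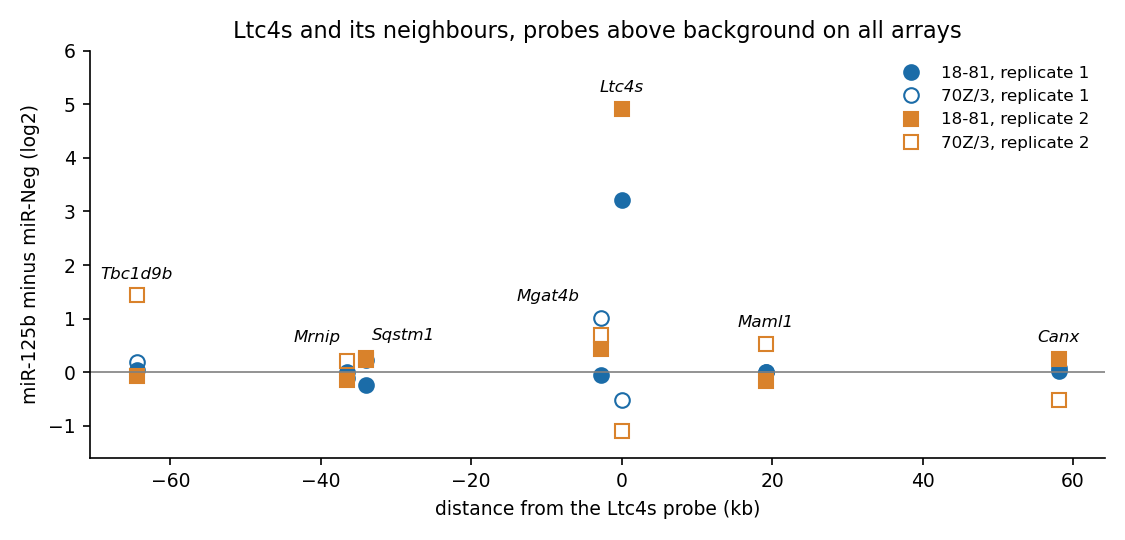
Difference between miR-125b and miR-Neg (y axis, log2) for probes above background on all 8 arrays, by distance from the Ltc4s probe in kb (x axis), with filled points for 18-81, open points for 70Z/3, circles for replicate 1 and squares for replicate 2. Ltc4s stands at 3.21 and 4.91 in 18-81, and the nearest neighbour, Mgat4b, at -0.05 and 0.43.

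Markers of other blood cells were set beside Ltc4s. Summed over 10 mast cell markers, the linear signal relative to the 75th percentile in 18-81 was 0.45 and 0.63 with miR-Neg and 0.38 and 0.57 with miR-125b, with 1 or 2 of 10 above background on an array. Hdc, which makes histamine, was above background on all 8 arrays and the tryptase gene Tpsb2 on 6, and the other 8 listed, Cpa3, Kit, Fcer1a and Ms4a2 among them, on none. In 18-81 Hdc differed by -0.175 and 0.07 with miR-125b and Tpsb2 by -0.31 and -1.42. The sum over 7 eosinophil and basophil markers was 0.12 and 0.13 with miR-Neg and 0.11 and 0.14 with miR-125b, with none above background in 18-81. For 10 macrophage markers the sum was 16.8 and 9.61 with miR-Neg and 16.1 and 11.2 with miR-125b, with 4 or 5 of 10 above background. Csf1r, Itgam, Mrc1 and Fcgr1 were above it on all 18-81 arrays. By their brightest probes they differed there by -0.001 and 1.71, -0.11 and -0.07, 0.10 and 0.02, and 0.04 and 0.15. The other Csf1r probes differed by 0.03 and 0.18 and by 0.21 and -0.33. The other Itgam probes, above background on 2 and 3 of the 4 arrays of 18-81, differed by 0.29 and 1.425 and by -0.63 and 0.175. The part of these macrophage markers in the Ltc4s result was not tested. For 9 neutrophil markers the sum was 1.12 and 1.25 with miR-Neg and 1.25 and 2.27 with miR-125b, higher in both replicates, with 1 or 2 of 9 above background. Elane, the one above background on all 18-81 arrays, differed there by 0.158 and 0.996. The part of this rise in the Ltc4s result was not tested. For 6 platelet markers the sum was 0.18 and 0.09 with miR-Neg and 0.17 and 0.13 with miR-125b, with 0 or 1 of 6 above background.

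What follows is a description with no test, since Ltc4s was selected on these differences. Of 19169 probes well above background on all 8 arrays, 2 had differences of at least 2 (log2) in both 18-81 replicates. They were those of Ltc4s and of Gm9304, a predicted gene picked out here after its values were seen. Without the demand for signal on all arrays, 13 probes met the rule. Among all genes tested, LOC100048891 also had both differences at 3.21 or more, and Ltc4s ranked 2 by mean difference in 18-81. Gm9304 intensity in 18-81 was 300.2 and 291 with miR-Neg and 1571 and 7285 with miR-125b. In 70Z/3 it was 291 and 310 with miR-Neg and 330.2 and 311 with miR-125b, and the scaled differences were -0.27 and -0.57. Pearson's r over the 8 arrays was taken only with tested genes that have a RefSeq symbol, which left out Gm9304. Among those, the genes most like Ltc4s were Ifnl3 at 0.955, Olfr1496 at 0.936 and 6430710C18Rik at 0.932. That likeness rests mainly on the same pair of 18-81 arrays.

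The other 3 measurable members differed little with miR-125b. Pla2g4a, the cytosolic phospholipase A2 that supplies arachidonic acid, was higher by 0.28 and 0.20 in 70Z/3 and by 0.06 and 0.26 in 18-81, on the same side of 0 in all 4 replicate pairs, although the 18-81 mean was -0.07 without 18-81 miR-125b replicate 2. Alox5ap, the activating protein of the lipoxygenase, differed by 0.235 and 0.15 in 70Z/3 and by -0.05 and 0.13 in 18-81. Lta4h, the hydrolase that makes leukotriene B4, differed by -0.06 and -0.44 in 70Z/3 and by 0.16 and -0.09 in 18-81. None of these fitted means was further from 0 than its standard error in the fit without the replicate block, which left the pairs unused.

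Scaling bears on the 70Z/3 values. The median gene differed there by -0.13 under the 75th percentile and by -0.01 after quantile normalization. The mean difference of Alox5ap in 70Z/3 was 0.19 under the first and 0.36 under the second, and that of Pla2g4a 0.24 and 0.41, so both kept their side of 0.

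**Figure D3:**
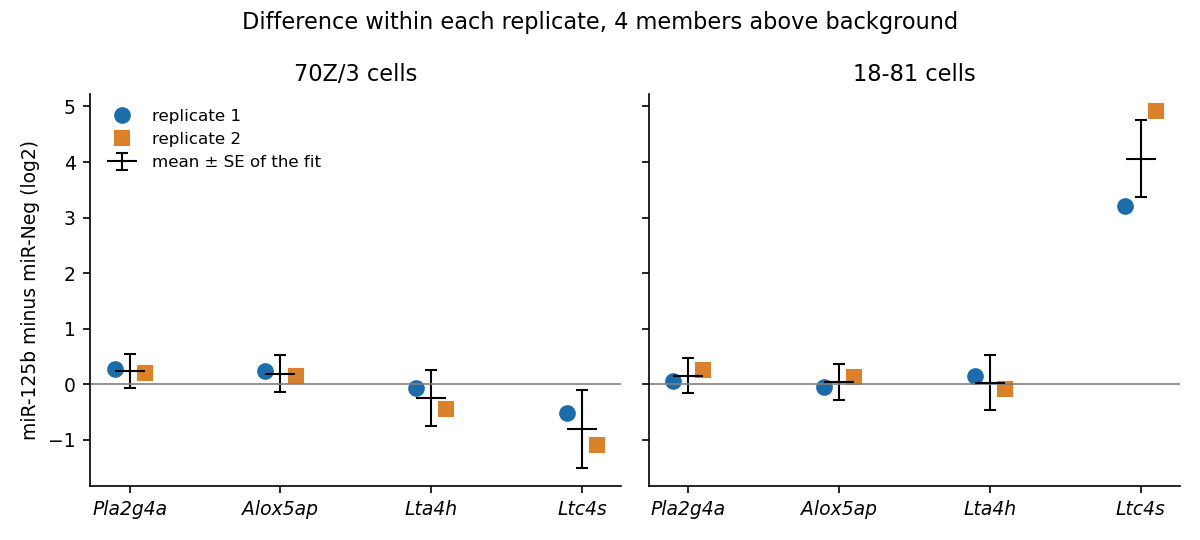
Difference between miR-125b and miR-Neg (y axis, log2) for the 4 members above background (x axis) in 70Z/3 and 18-81, with circles for replicate 1, squares for replicate 2 and black bars for the mean ± SE of the fit. Ltc4s lies at 3.21 and 4.91 in 18-81 and below 0 in 70Z/3, and the other members lie between -0.44 and 0.28.

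The second question was how the lines differ, a contrast that the choice of members did not use as such. The miR-125b values on which Ltc4s was selected do enter it. Alox5ap was lower in 18-81 than in 70Z/3. Its levels in 70Z/3 were 3.21 and 3.65 with miR-Neg and 3.45 and 3.80 with miR-125b. In 18-81 they were 2.45 and 1.91 with miR-Neg and 2.40 and 2.04 with miR-125b. All 4 arrays of 18-81 lay below all 4 of 70Z/3. Alox5ap was lower by 1.33 on the log2 scale (SE 0.23), a 2.52-fold difference, with an adjusted p of 0.00289 in limma. Under miR-Neg alone the difference was -1.26, with an adjusted p of 0.0291 in limma.

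Within replicate 1 the Alox5ap difference was -0.91 and within replicate 2 it was -1.75, both in the same direction. The gap between these values was not tested.

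Pla2g4a was lower in 18-81 by a smaller margin. Its levels in 70Z/3 were 2.99 and 3.38 with miR-Neg and 3.27 and 3.59 with miR-125b, and in 18-81 they were 2.51 and 2.77 and then 2.57 and 3.03. The lines overlapped by 1 array, since the highest of 18-81 exceeded the lowest of 70Z/3. The fitted difference of -0.59 (SE 0.22) did not pass, with an adjusted p of 0.0757 in limma. With the replicate number as a block it passed, with an adjusted p of 0.00785, and within the replicates it was -0.59 and -0.59.

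Lta4h had no line difference that the fit could resolve. Its levels were 3.98 and 4.90 in 70Z/3 with miR-Neg, 3.91 and 4.46 with miR-125b, 3.73 and 4.80 in 18-81 with miR-Neg, and 3.88 and 4.71 with miR-125b. In every group replicate 2 was the higher. The difference between lines was -0.03 (SE 0.36, adjusted p 0.957 in limma), with the groups of both lines overlapping widely.

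For Ltc4s the comparison of lines turned on the duplex. Over both duplexes 18-81 was at 1.20 above 70Z/3 (SE 0.49, adjusted p 0.105 in limma), and the replicate block gave an adjusted p of 0.0156. Under miR-Neg alone it was below 70Z/3 by -1.23 (SE 0.70, adjusted p 0.273 in limma). The higher mean of 18-81 thus came from its arrays with miR-125b, the values on which Ltc4s had been selected.

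In all, 1 of the 4 members tested, 25%, differed between the lines, against 31.8% of all 18792 genes, of which 15.8% were higher in 18-81 and 16.1% lower. The members' share is near that background. With the replicate block 3 of 4 were called, namely Ltc4s, higher in 18-81, and Alox5ap and Pla2g4a, both lower. The call of Ltc4s rests on the miR-125b arrays that it was selected on, so it is no independent support. That fit called 48.1% of all genes, 24.7% higher and 23.4% lower. Slide row equals replicate number and slide column equals group on the single slide, so position and group cannot be told apart.

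Pearson's r over the 8 arrays was 0.795 between Alox5ap and Pla2g4a, 0.452 between Lta4h and Pla2g4a and -0.039 between Alox5ap and Lta4h. For Ltc4s it was -0.327 with Alox5ap, 0.347 with Lta4h and -0.015 with Pla2g4a. The arrays share lines, experiments and a slide, so these are descriptions. Among tested genes with a RefSeq symbol, those most like Alox5ap were Gm13142 at 0.995, Mgarp at 0.990 and Apobec3 at 0.989. For Lta4h they were Hdac9, Rpl5 and Gm7667 at 0.991 to 0.997, and for Pla2g4a they were Olfr1252, Tgfbr1 and Lrrfip1 at 0.980 to 0.982.

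The pathway around the members was followed with 59 further genes, from other phospholipases to receptors. Of these, 26 could be tested, and 3 were higher and 6 lower in 18-81, or 34.6% called, against 31.8% of all genes. Abcc1, Ptger4 and Hpgds are among these 9, though each was detected in a single line. The share of all genes was counted under the same rule. With a filter for signal on all 8 arrays, 5 were called. The median difference of the 26 was -0.08, and that of all genes was 0.02 (log2). With the replicate block 15 were called, or 57.7%, against 48.1% of all genes in that fit. Of these, 5 were higher and 10 lower, and they included the same 9.

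**Figure D4:**
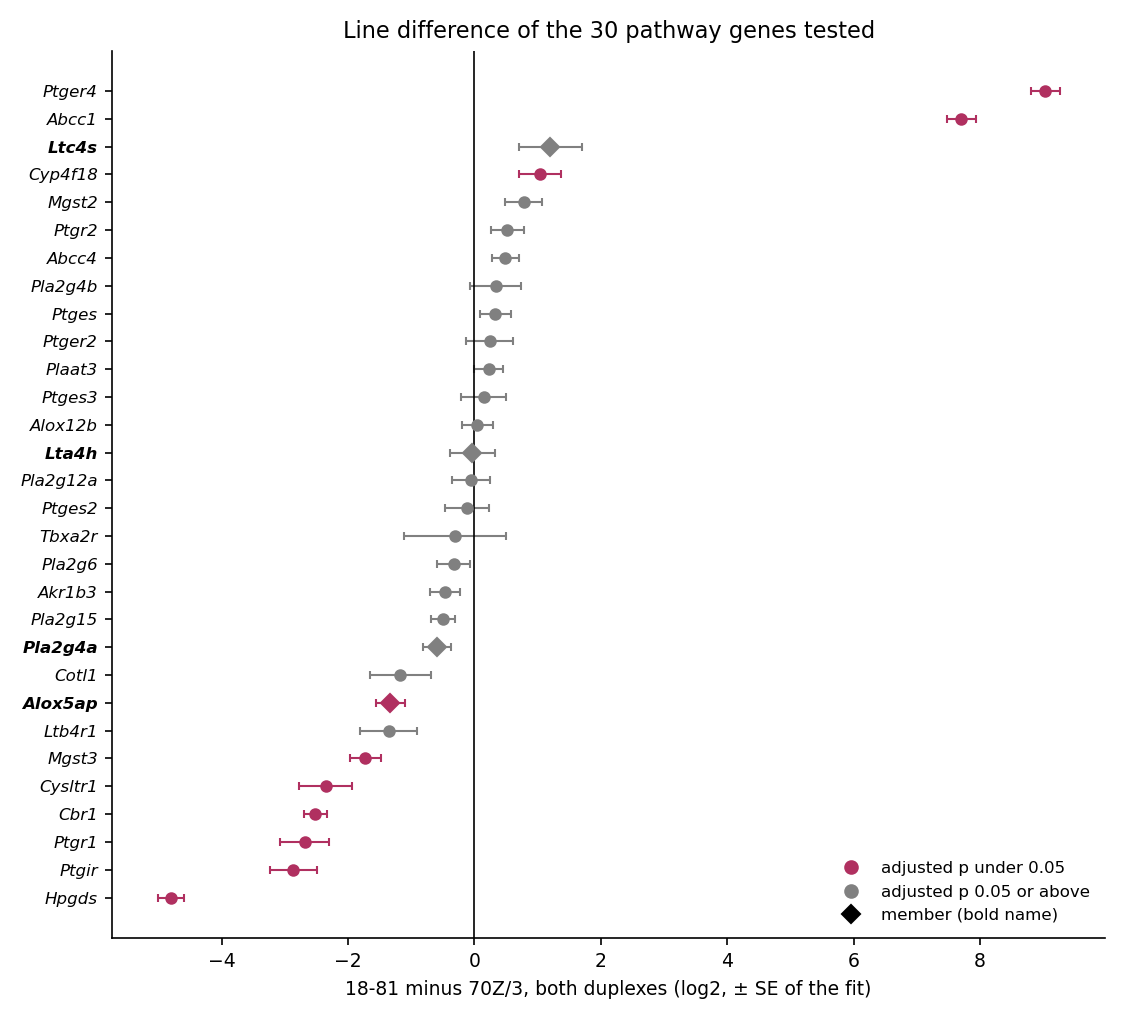
Difference between 18-81 and 70Z/3 over both duplexes (x axis, log2, bars ± SE of the fit) for the 4 members and 26 other pathway genes tested (y axis), in red where the adjusted p is under 0.05 and with diamonds for members. Alox5ap at -1.33 is the one member in red. The points of Ptger4, Abcc1 and Hpgds are fitted against a line below background, so their distance from 0 is not a measured size and gives no order.

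Among 16 other phospholipase genes, 5 were measurable and none passed between the lines, against 31.8% of all genes. Pla2g15, a lysosomal enzyme, passed with the block at an adjusted p of 0.023 in limma. Pla2g6, the calcium-independent enzyme, and Pla2g12a, Pla2g15, Pla2g4b and Plaat3 had line differences from -0.50 to 0.34. With miR-125b, none of these 5 had a mean difference of 1 or more in either line.

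Of 10 further genes of the leukotriene branch, 6 were tested and 4 passed, or 66.7%, against 31.8% of all genes. Abcc1 is among these 4, though it was detected in 18-81 alone. The list is short and its share was not tested. Abcc1, the transporter that exports leukotriene C4, was not well above background in 70Z/3, with intensities of 7.4 to 8.3, and stood at 1915 to 2244 in 18-81. It was at least 56.7-fold higher in 18-81, taken against the lowest signal called above background on each 70Z/3 array. Abcc1 entered the test through 18-81 alone, so this is a difference in detection and no p is given. Mgst3, a membrane glutathione transferase with activity like that of Ltc4s, was lower in 18-81 by a difference of -1.73, with an adjusted p of 0.001 in limma. Its second probe gave 2296 to 2653 in 70Z/3 and 98.2 to 129 in 18-81, a wider gap than the probe that stands for the gene.

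Ptgr1, which inactivates leukotriene B4 and prostaglandins, was at 6537 to 8069 in 70Z/3 and at 984 to 2037 in 18-81. The difference was -2.69, with an adjusted p of 0.000954 in limma. Cyp4f18, a hydroxylase of leukotriene B4, was higher in 18-81 by 1.04, with an adjusted p of 0.0452 in limma. That call was lost when any 1 of 6 arrays was left out, with an adjusted p of 0.0796 to 0.119 in limma, and it held without 70Z/3 miR-125b replicate 2 or 18-81 miR-125b replicate 1. It was lost too under miR-Neg alone, with no filter and with the mean of its probes, at adjusted p of 0.118, 0.0888 and 0.0938 in limma. A block within each line compares the lines in replicate 1 alone, where the difference was 1.15, and the call was lost there as well. Mgst2, a relative of Mgst3, differed by 0.78, and Cotl1, a binding partner of 5-lipoxygenase, by -1.17, and neither passed, though both did with the block.

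Alox12b, the lipoxygenase of the skin barrier, was the one tested gene of 6 in the list of other lipoxygenases. Its line difference was 0.04, at intensities of 43.2 to 89.3, not far above the lowest signal called above background. Its second probe was above background on 1 of 8 arrays.

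In the prostaglandin branch, of 10 terminal synthase genes 6 were above background on all arrays of 70Z/3 and 5 on all of 18-81, while both cyclooxygenases were below it. Hpgds, the haematopoietic prostaglandin D synthase, had intensities of 159, 249, 91.1 and 189 in 70Z/3 and of 7.1 to 7.7 in 18-81, where it was not well above background. It was at least 6.86-fold higher in 70Z/3. Hpgds entered the test through 70Z/3 alone, so this is a difference in detection and no p is given. Cbr1, a carbonyl reductase that can convert prostaglandin E2, was lower in 18-81 by a difference of -2.52, with an adjusted p of 1.57e-05 in limma. Cbr1, above background on all 8 arrays, did not overlap between the lines, and the share of all genes without overlap was not counted.

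The prostaglandin E synthases Ptges, Ptges2 and Ptges3 and the reductase Akr1b3 did not pass, with differences from -0.47 to 0.33, although Akr1b3 passed with the block. Tbxas1, the thromboxane synthase, was above background on 2 arrays, both of 18-81, at 53.5 and 62.6, and was not tested. The 2 tested genes of prostanoid export and breakdown, Abcc4 and Ptgr2, differed by 0.49 and 0.52, and Ptgr2 passed with the block.

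Of 9 prostanoid receptor genes 4 were tested, and 1 was higher and 1 lower in 18-81. That is 50% called, against 31.8% of all genes, and the share was not tested. It counts Ptger4, which was detected in 18-81 alone. Ptger4, the EP4 receptor of prostaglandin E2, was at 5.7 to 6.4 in 70Z/3, not well above background, and at 3243 to 4524 in 18-81. It was at least 111-fold higher in 18-81. Ptger4 entered the test through 18-81 alone, so this is a difference in detection and no p is given. Ptgir, the prostacyclin receptor, was lower in 18-81 by a difference of -2.87, with an adjusted p of 0.000509 in limma. It was above background on 7 of 8 arrays.

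Cysltr1, a receptor for the cysteinyl leukotrienes that follow from the Ltc4s reaction, was lower in 18-81. Its signal was 1172 to 2182 in 70Z/3 and 268 to 527 in 18-81, a difference of -2.36 with an adjusted p of 0.00315 in limma, and its second probe gave 289 to 529 and 50.9 to 122. In 18-81 it did not follow Ltc4s with miR-125b, at 281 and 527 with miR-Neg and 268 and 507 with miR-125b.

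Among the 26 of these pathway genes that were tested, 3 had a mean difference of at least 1 with miR-125b and the same direction in both replicates. The share of all genes that meet this rule was not counted, so that all 3 encode receptors is a description. Ltb4r1, the receptor of leukotriene B4, had differences of 0.15 and 2.23 in 70Z/3 and of 1.64 and 0.60 in 18-81, and was above background on 5 of 8 arrays. Ptgir had differences of 1.92 and 0.60 in 70Z/3. Tbxa2r, the thromboxane receptor, had differences of 1.54 and 0.82 in 70Z/3 and was above background on 4 of 8 arrays. The limma fit called 0% of genes in these contrasts. Between the lines Ltb4r1 differed by -1.36, and it passed with the block, at an adjusted p of 0.0237 in limma.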

How the data were processed

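The members and gene lists were chosen with earlier results of these data known. One-colour arrays of 1 slide were used, 2 for each of 4 groups; the authors deposited scanner output of Agilent Feature Extraction 10.7.3.1 (mm9, per the file headers), whose processed signal is a linear intensity, and a table of linear intensities normalized between arrays by an unstated method, whose log2 served as an alternative. Control spots were left out, as were spots flagged as outliers, unless every spot of a probe was flagged. Values were log2 intensity minus the array's 75th percentile. Testing needed, in at least 1 group, a probe detected above background by both its arrays, and the brightest such probe stood for the gene. Group means were fitted with limma 3.58.1 in R 4.3.3 with Benjamini-Hochberg adjustment at 0.05, after a test on simulated data. The number of arrays limits the precision.

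Genes were named if they were members, passed between lines (up to 6 a list) or differed by 1 or more with miR-125b in both replicates' direction. Detected markers were named too, as were the 3 tested genes with a RefSeq symbol most like a member. Same-numbered arrays deviated together (r 0.374 to 0.646 over 6 pairs of groups) and shared a slide row, so the numbers were taken to pair, as the design text's independent experiments; the fit with the block is given where it changed a call. RefSeq symbols of GRCm38.p6 matched all 7 members by accession. Alternatives were other background correction, scaling, filters, probe averaging, blocks and each array left out.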

Additional observations from a re-analysis of the deposited data

Results flagged for a closer look

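Among the 4 members and 26 other pathway genes tested, 7 had both 18-81 replicates move with miR-125b one way and both 70Z/3 replicates the other. The difference between the lines was not tested as such for these genes on their own, and the fit across all genes called none of them. For Ltc4s the effect in 18-81 exceeded that in 70Z/3 by 4.86 (log2), the largest of the 7. Tbxa2r had a difference of -1.59 and Pla2g6 one of -0.84, since both were higher with miR-125b in 70Z/3. Cotl1 had 1.06, Abcc4 0.51, Ptges 0.50 and Ptgr2 0.40, each lower with miR-125b in 70Z/3. For Ptgr2 this holds for 1 of 3 probes, since the others, also above background on all 8 arrays, were higher with miR-125b in both 70Z/3 replicates, by 0.10 and 0.13 and by 0.21 and 0.23. Over all 18792 genes the median of this quantity was 0.17 and its standard deviation 0.68. The share of all genes that moved in opposite directions was not counted, so the number 7 has no background. The median gene in 70Z/3 differed by -0.13, and Ltc4s, Cotl1, Abcc4, Ptges and Ptgr2 lay on that side of 0 there. After quantile normalization that median was -0.01.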

How the results depend on the processing

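Alox5ap stayed lower in 18-81 and past the threshold under all 18 alternatives, and the difference of Ltc4s in 18-81 stayed between 3.08 and 5.04 when 1 array was left out. Among the 18, the replicate block within each line compares the lines in replicate 1 alone, and Alox5ap differed by -0.91 there. Members called numbered 2 after quantile normalization, 2 in the authors' deposited table of normalized intensities (Pla2g4a joining in both), 2 with no filter (Ptgs1 joining, below background), 3 with the replicate block, and 1 to 2 with 1 array left out (Ltc4s joining without 18-81 miR-125b replicate 1). Other pathway genes called numbered 5 with the filter on all 8 arrays, which tests fewer genes, and 15 with the replicate block. Genes called higher in 18-81 numbered 1731 with that filter, 4643 with the replicate block and 1862 under miR-Neg alone, and genes called lower 1800 with that filter. For miR-125b in 18-81 the calls were 3 after quantile normalization, 3 in the authors' table, 2 with the replicate block and 0 to 13 with 1 array left out; 13 came without 18-81 miR-125b replicate 2 and 5 without replicate 1. In 70Z/3 they were 1 with normexp, 1 with the replicate block within each line and 0 to 2 with 1 array left out, and for the difference of effects 0 to 5. Where no construction shows it, the cause was not tested. The Ltc4s line difference turned to -1.23 under miR-Neg alone. That of Lta4h turned to 0.012 with normexp and ran from -0.30 to 0.235 with 1 array left out. Of 119 other values for the duplex, 30 moved beyond the spread of the replicates. With 1 array left out the difference with miR-125b ran, in 70Z/3, from -0.024 to 0.41 for Alox5ap, -0.71 to 0.21 for Lta4h, 0.046 to 0.435 for Pla2g4a and -1.52 to -0.09 for Ltc4s, and in 18-81 from -0.23 to 0.31 for Alox5ap, -0.50 to 0.57 for Lta4h and -0.072 to 0.39 for Pla2g4a, so several changed sign. Signal near background limits Alox5, Ptgs1 and Ptgs2, which no array measured, and Ltb4r1 and Tbxa2r, which some did. It also limits Alox12b, which was dim on every array. Against a line below background, the fitted differences of Ptger4, Abcc1 and Hpgds went from 9.03, 7.70 and -4.81 to 5.55, 4.39 and -2.00 with normexp.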
